A study of Mus musculus with 12 samples.

Results

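FOXA2 transfection was set against HIF-1a transfection in TRAMP-C cells, a line isolated from the prostate tumour of TRAMP mice of the C57BL6 strain. The 6 arrays compared were chosen by their labels from the 12 of the series, 3 with FOXA2 alone and 3 with HIF-1a alone. In each set of 3 arrays, 1 was from cells in normoxia and 2 were from cells kept in 1% oxygen (hypoxia) for 12 h, starting 48 h after nucleofection of the plasmid. The arrays therefore form 3 matched pairs, named here the normoxia pair, hypoxia pair 1 and hypoxia pair 2, each with 1 FOXA2 and 1 HIF-1a array of the same oxygen level and replicate number. Both sets carried a transfected factor and no empty-vector array enters, so a difference does not say in which set a gene moved. The TRAMP-C cells are labelled wild-type, and the labels give neither the promoter of the plasmids nor the share of cells that took them up. In bulk RNA, fewer transfected cells and less RNA per cell cannot be told apart.

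FOXA2 is a forkhead transcription factor that opens chromatin in developing endoderm and liver, and in the prostate it is known from neuroendocrine tumours. HIF-1a is the part of hypoxia-inducible factor that oxygen controls. In normal oxygen prolyl hydroxylases mark it for VHL-dependent degradation, and in low oxygen it pairs with ARNT and drives genes of glycolysis, angiogenesis and iron and haem handling. The study's title places the 2 proteins in 1 concerted activity under the ubiquitin ligase Siah2 in neuroendocrine prostate tumours, and the comparison here shows how far the RNA of cells given the one differs from that of cells given the other.

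RNA was measured on Illumina Mouse-6 BeadChips, on which 45281 probes had deposited values. Probes detected on at least 2 of the 6 arrays numbered 16599 and named 9331 genes, each represented by its brightest probe. Mean intensity over all probes lay between 298 and 347, and each array detected 15473 to 16115 probes. Values below are log2 normalized intensities unless called raw, and differences are FOXA2 minus HIF-1a. Values after ± are limma standard errors, which combine the spread between matched pairs with a prior over all genes. The number of arrays limits the precision. The transfections were made in duplicate per the labels, which do not tie an array to a culture, so each p-value reflects array-to-array spread, which may be technical. Of the epithelial markers, Cdh1, which encodes E-cadherin, was detected on 2 FOXA2 and 3 HIF-1a arrays and the keratin gene Krt8 on 2 and 1. Epcam, Krt18 and Foxa1 gave no detected named probe. Fibroblast and smooth muscle markers were detected for 7 of 13 genes. Raw intensity was summed over the 19 named probes of 10 of these genes, detected or not. The sums were 23986 to 37284 on the FOXA2 arrays and 26212 to 36837 on the HIF-1a arrays.

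One array stood apart. On the HIF-1a array of hypoxia pair 1, 117 genes lay more than 2-fold below all the other 5 arrays, while no gene did so on any of those 5. The genes Erbin, Jak1, Cox11 and Hsp90aa1 are given as examples, chosen after their values were seen. Jak1, a cytokine receptor kinase, read 4.97 on that array and 9.46 to 9.89 on the others, and the chaperone gene Hsp90aa1 read 8.18 against 11.81 to 12.37. Erbin read 4.47 against 9.50 to 9.70 and Cox11 4.36 against 8.87 to 9.23. Of the 117 genes, 42 had another detected probe, and in 1 of these 42 the other probe was also more than 2-fold below. The second probe of Hsp90aa1 read 10.11 on that array and 9.81 to 10.79 on the others. The processed table gave 98 such genes. The called genes are therefore also given for the normoxia pair and hypoxia pair 2 alone, as are the lists described at length and the uncalled genes that this moves by more than 1.5 times.

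The 2 transfections gave closely similar profiles outside that array. Across the 9331 genes the correlation between FOXA2 and HIF-1a arrays was 0.9957 in the normoxia pair and 0.9965 in hypoxia pair 2, against 0.9766 in hypoxia pair 1. The standard deviation of the difference was 0.198, 0.175 and 0.458 in the same order. At least 2-fold differences in favour of FOXA2 numbered 5, 4 and 221 genes, and those in favour of HIF-1a numbered 2, 2 and 4. With the 4 called genes left out, the differences of 9327 genes correlated at 0.0999 between the normoxia pair and hypoxia pair 2, at 0.0913 between the normoxia pair and hypoxia pair 1, and at 0.145 between the hypoxia pairs. These pairs share no array but were normalized together, and genes are not independent replicates.

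**Figure D1:**
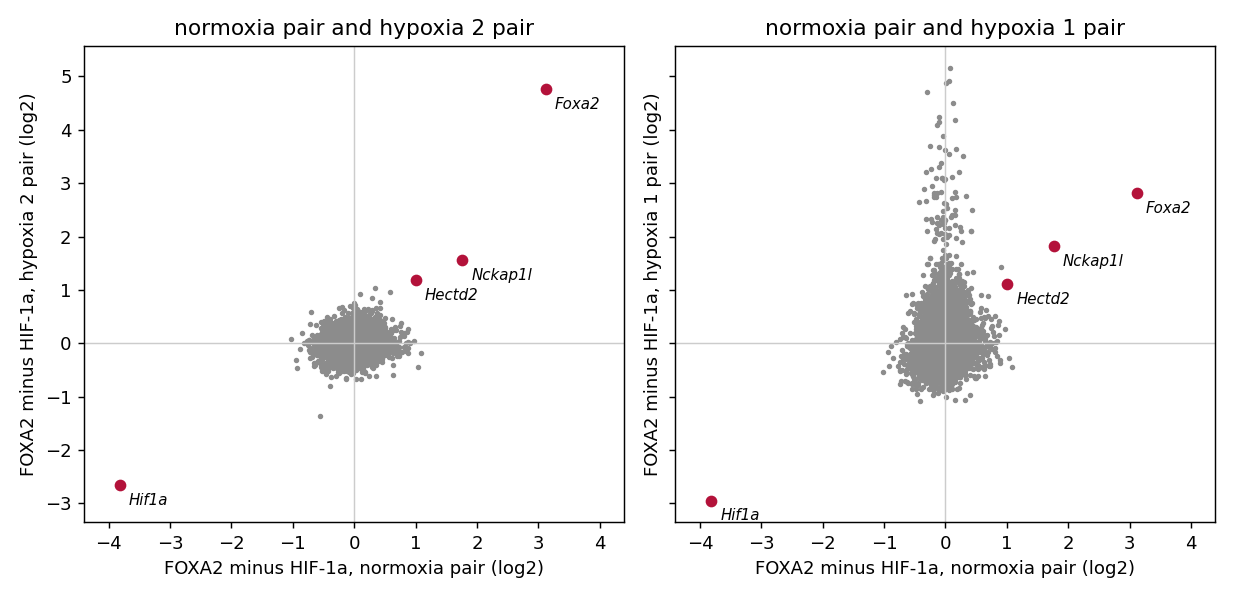
Difference FOXA2 minus HIF-1a (log2) of each of the 9331 genes in the normoxia pair (horizontal axes) against hypoxia pair 2 (left) and hypoxia pair 1 (right), with the 4 called genes in red. On the left the remaining genes form a compact cloud around 0, and on the right a column of genes reaches up to 5.17 (Erbin), with 221 genes at least 2-fold higher with FOXA2 in hypoxia pair 1 and 5 in the normoxia pair.

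Over the 3 matched pairs 4 of 9331 genes passed an adjusted p under 0.05 in limma with Benjamini-Hochberg adjustment. Higher with FOXA2 were Foxa2, Nckap1l and Hectd2, 0.0322% of the genes tested, and higher with HIF-1a was Hif1a alone, 0.0107%. The next lowest adjusted p was 0.701. At an unadjusted p under 0.05, 216 genes (2.31%) were higher with FOXA2 and 309 (3.31%) with HIF-1a.

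Foxa2 read 9.78 in normoxia, 9.08 in hypoxia 1 and 10.81 in hypoxia 2 on the FOXA2 arrays. On the HIF-1a arrays it read 6.66, 6.27 and 6.04 and was detected on all 3. The sets did not overlap, and the FOXA2 array of hypoxia pair 2 was the highest. The difference was 3.57 ± 0.34, or 11.9-fold, with an adjusted p of 0.0462 by limma. Without hypoxia pair 1 it was 3.95 with an adjusted p of 0.00177. Foxa2 was represented by 1 probe.

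Hif1a read 12.69, 12.18 and 12.11 on the HIF-1a arrays in normoxia, hypoxia 1 and hypoxia 2. On the FOXA2 arrays it read 8.87, 9.23 and 9.46, levels well within the detected range. The difference was -3.14 ± 0.21, an 8.80-fold higher level with HIF-1a, with an adjusted p of 0.00921 by limma. It was -3.82 in the normoxia pair, -2.95 in hypoxia pair 1 and -2.65 in hypoxia pair 2. A second Hif1a probe was detected on no array. Whether the RNA came from the plasmid or from the cells' own gene cannot be told apart, because the labels do not give the transcript parts the plasmids carried.

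Nckap1l encodes HEM1, the blood-cell form of a subunit of the WAVE complex that starts branched actin assembly. It read 6.16, 6.28 and 6.14 on the FOXA2 arrays and 4.40, 4.45 and 4.57 on the HIF-1a arrays, where it was not detected. The 3 FOXA2 arrays lay within a narrow band in both oxygen levels. The measured difference was 1.72 ± 0.11 with an adjusted p of 0.00921 by limma, and as the HIF-1a side was below background the level is given as at least 2.02-fold higher. The bound sets the FOXA2 mean against the lowest signal of a detected probe on each HIF-1a array. Since the gene is known from blood cells, the immune markers are given beside it. Of 24 immune genes looked for, 6 had a named probe and 2 of them, Cd74 and Cd14, were detected on at least 2 arrays. Raw intensity was summed over all 8 named probes of those 6 genes, detected or not. The sums were 659 to 778 on the FOXA2 arrays and 713 to 844 on the HIF-1a arrays. Cd14 differed by -0.08 ± 0.10 and Cd74 by -0.13 ± 0.10, or -0.19 without hypoxia pair 1, with neither called.

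Hectd2 encodes a ubiquitin ligase of the HECT family. It read 7.56, 7.996 and 8.69 on the FOXA2 arrays and 6.55, 6.89 and 7.51 on the HIF-1a arrays. The sets did not overlap, though the highest HIF-1a value, 7.51, lay just under the lowest FOXA2 value, 7.56, and within the pairs the difference was 1.00, 1.11 and 1.18. The matched difference was 1.10 ± 0.10, or 2.14-fold, with an adjusted p of 0.0445 by limma. A second detected probe of Hectd2 gave 0.61 and another was not detected. Without the pairing by stratum the adjusted p of Hectd2 was 0.9997 and that of Foxa2 0.412, while Hif1a and Nckap1l kept their calls. Without hypoxia pair 1 all 4 genes were called, Hectd2 at 1.09 with an adjusted p of 0.00529, Nckap1l at 1.66 with 0.000762 and Hif1a at -3.23 with 0.001155, by limma. That fit holds only the normoxia pair and hypoxia pair 2, and its spread comes from these and the prior over genes. Its lower adjusted p-values are therefore not to be read as stronger evidence.

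**Figure D2:**
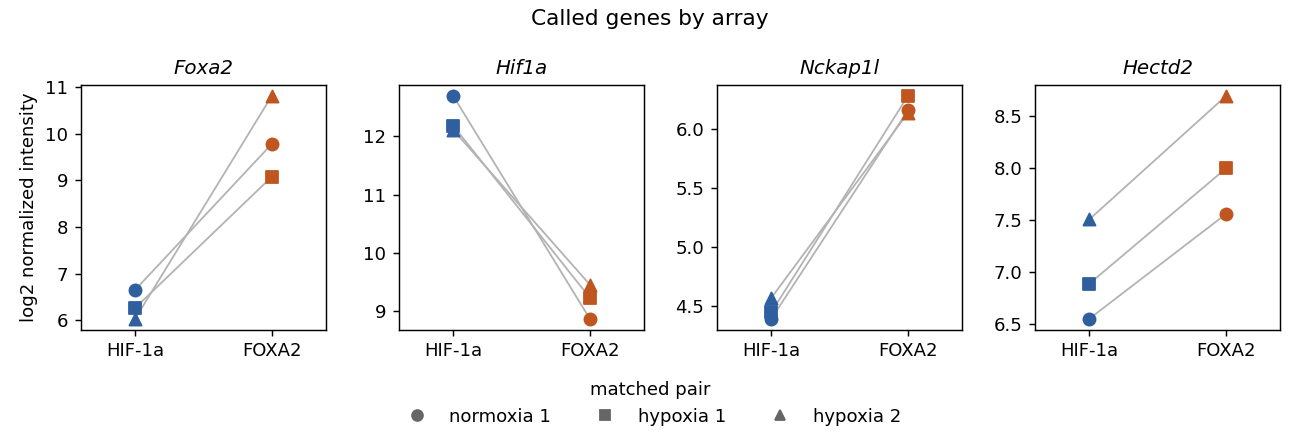
Log2 normalized intensity of the 4 called genes on each array, HIF-1a arrays in blue and FOXA2 arrays in orange, with lines joining the arrays of a matched pair (circle normoxia, square hypoxia 1, triangle hypoxia 2) and a separate scale in each panel. All 3 lines run the same way in each panel, and those of Hectd2 are nearly parallel, with gaps of 1.00, 1.11 and 1.18.

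The rest of the genes named in each direction share a sign in all 3 pairs and did not pass the test, each with an adjusted p of 0.701 by limma. All 3 differences had 1 sign in 1183 genes (12.7%) higher with FOXA2 and 1736 genes (18.6%) higher with HIF-1a. With a mean of at least 0.5 as well, there were 51 (0.547%) and 15 (0.161%). The all-gene median difference was -0.02, and was -0.09 in hypoxia pair 1.

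On the FOXA2 side, Socs2, an inhibitor of cytokine receptor signalling, had the smallest p. It read 9.35, 7.87 and 7.69 with FOXA2 and 8.73, 7.38 and 7.23 with HIF-1a, a difference of 0.52 ± 0.10. In both sets Socs2 was highest in normoxia, and the gap between sets was smaller than that between oxygen levels. Rel, the NF-kB subunit c-Rel, read 6.42, 6.05 and 7.29 against 6.08, 5.50 and 6.25, a difference of 0.64 ± 0.15. Dek, a chromatin protein gene, differed by 0.53 ± 0.11 on its brightest probe and by 0.54 and 0.32 on its other probes. Angpt2, which encodes a ligand of the TIE2 receptor of blood vessels, read 7.30, 7.71 and 8.43 against 6.88, 7.36 and 7.89. Its matched difference was 0.44 ± 0.10, and the sets overlapped.

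Some of the differences on the FOXA2 side lay near background. Mep1a, a meprin metalloprotease gene, differed by 0.76 ± 0.17 and Lrrn3, which encodes a neuronal leucine-rich repeat protein, by 0.63 ± 0.14. Neither was detected on a HIF-1a array, and their bounds were at least 1.12-fold and at least 1.10-fold. Abca8b, a lipid transporter gene, differed by 0.47 ± 0.11, was also undetected with HIF-1a and is given no fold. Zfp758 differed by 0.56 ± 0.14 and Mss51 by 0.46 ± 0.11.

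On the HIF-1a side, Hmox1, the haem-degrading enzyme and a HIF and NRF2 target, was the brightest of these genes. It read 9.06, 10.91 and 10.93 with FOXA2 and 9.71, 11.48 and 11.30 with HIF-1a, a difference of -0.53 ± 0.11. Its values split by oxygen first and by transfection second. Csf2, the cytokine GM-CSF, read 6.07, 5.08 and 5.25 against 6.47, 5.72 and 6.04, a difference of -0.61 ± 0.11. Psmb9, an immunoproteasome subunit, read 6.46, 6.99 and 7.00 against 7.39, 7.42 and 7.46, so that every HIF-1a array lay above every FOXA2 array. Its difference was -0.60 ± 0.13. Sfrp1, a secreted WNT antagonist, read 6.15, 5.42 and 6.10 against 6.60, 6.19 and 6.68, also without overlap, a difference of -0.60 ± 0.11. A second detected probe of Sfrp1 gave -0.45.

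Ifnb1, interferon beta, read 5.30, 5.39 and 5.75 on the HIF-1a arrays and was not detected on the FOXA2 arrays, where it read 4.75, 4.62 and 4.40. The measured difference was -0.89 ± 0.16 and the bound at least 1.24-fold. Igfbp5, an IGF-binding protein gene, differed by -0.50 ± 0.10 and by -0.25 and -0.09 on its other probes. Acox3 of peroxisomal fatty acid oxidation differed by -0.59 ± 0.11 and the haptoglobin gene Hp by -0.52 ± 0.10. Acox3 was detected on 1 FOXA2 and 3 HIF-1a arrays and Hp on 1 of each, so the values of Hp lie mostly below background. The small heat shock gene Hspb2 differed by -0.49 ± 0.11, the splicing gene Prpf38b by -0.47 ± 0.10 and Eno2, neuronal enolase, by -0.43 ± 0.10. Without hypoxia pair 1 the uncalled differences named by direction ran from 0.38 for Zfp758 to 0.78 for Lrrn3 on the FOXA2 side and from -0.95 for Ifnb1 to -0.39 for Hspb2 on the HIF-1a side, none moved by more than 1.5 times. None of the named genes outside the 4 called passed the test there either, where their lowest adjusted p was 0.175, that of Lrrn3.

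**Figure D3:**
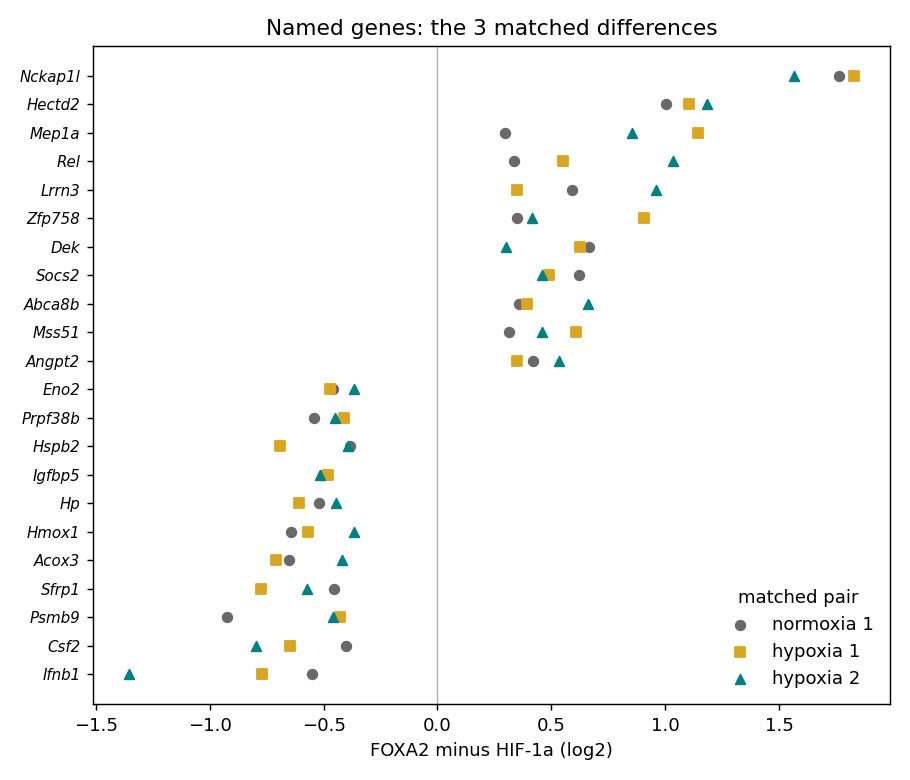
The 3 matched differences FOXA2 minus HIF-1a (log2) of each gene named by direction, other than Foxa2 and Hif1a, 1 symbol per pair (circle normoxia, square hypoxia 1, triangle hypoxia 2). All 3 symbols of a gene lie on 1 side of 0 by the rule that chose it. The pairs run from 1.56 to 1.83 for Nckap1l and from 1.00 to 1.18 for Hectd2, and they lie wider apart for Ifnb1, from -1.35 to -0.55.

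No HIF target gene other than those named next stood out at an unadjusted p under 0.05. Of 47 measured targets outside glycolysis, 0 were called, and 0 were higher with FOXA2 and 5 with HIF-1a at that p, against backgrounds of 2.31% and 3.31%. The 5 were Hmox1, the stress-induced mTORC1 inhibitor gene Ddit4, the collagen lysyl hydroxylase gene Plod1, the lipid droplet gene Plin2 and the growth factor gene Pdgfb. Ddit4 read 8.62, 10.71 and 11.82 with FOXA2 and 8.81, 11.27 and 12.18 with HIF-1a, a difference of -0.37 ± 0.11. Plod1 differed by -0.43 ± 0.14, Plin2 by -0.43 ± 0.15 and Pdgfb by -0.34 ± 0.13, all with an adjusted p of 0.701 by limma. Without hypoxia pair 1 Plin2 differed by -0.21. Pdgfb was detected on 1 FOXA2 and 2 HIF-1a arrays. The list's median difference was 0.00, beside -0.02 over all genes, and its members ran from -0.53 to 1.00. The highest, Ero1a and Mxi1, named after their values were seen, had these means through hypoxia pair 1, at 3.10 and 2.14, against -0.06 and -0.16 in the normoxia pair.

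Of 20 measured glycolytic HIF targets, 0 were called, and 0 were higher with FOXA2 and 3 with HIF-1a at an unadjusted p under 0.05. Aldoc, aldolase C, read 6.10, 8.62 and 9.87 with FOXA2 and 6.42, 9.37 and 10.22 with HIF-1a, a difference of -0.47 ± 0.12. Eno2 read 7.12, 7.82 and 8.30 against 7.58, 8.30 and 8.67. Pfkp, platelet phosphofructokinase, read 8.03, 10.95 and 10.96 against 8.25, 11.35 and 11.13, a difference of -0.26 ± 0.10, with -0.07 on its second probe. Pdk1, the kinase that shuts pyruvate dehydrogenase, differed by -0.28 ± 0.12 with an unadjusted p of 0.0523. All 3 differences were negative in 7 members and positive in 0, beside 18.6% and 12.7% of all genes, and the list's median was -0.07.

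With hypoxia pair 1 left out, members of 1 sign can be counted over the other pairs. Over all genes 2447 (26.2%) were higher with FOXA2 in both the normoxia pair and hypoxia pair 2, and 2524 (27%) higher with HIF-1a in both. Among HIF targets outside glycolysis the counts were 7 and 23 of 47, with a median of -0.06, and among glycolytic targets 3 and 10 of 20, with a median of -0.09. These shifts were small beside the oxygen response of the same genes. From normoxia to hypoxia, replicate 1 arrays, the median target outside glycolysis differed by 1.74 in FOXA2 cells and 1.60 in HIF-1a cells, and the median glycolytic target by 1.03 and 0.90, with 1 array at each level and no test. The HIF-1a hypoxia array in this comparison is the array that stood apart.

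**Figure D4:**
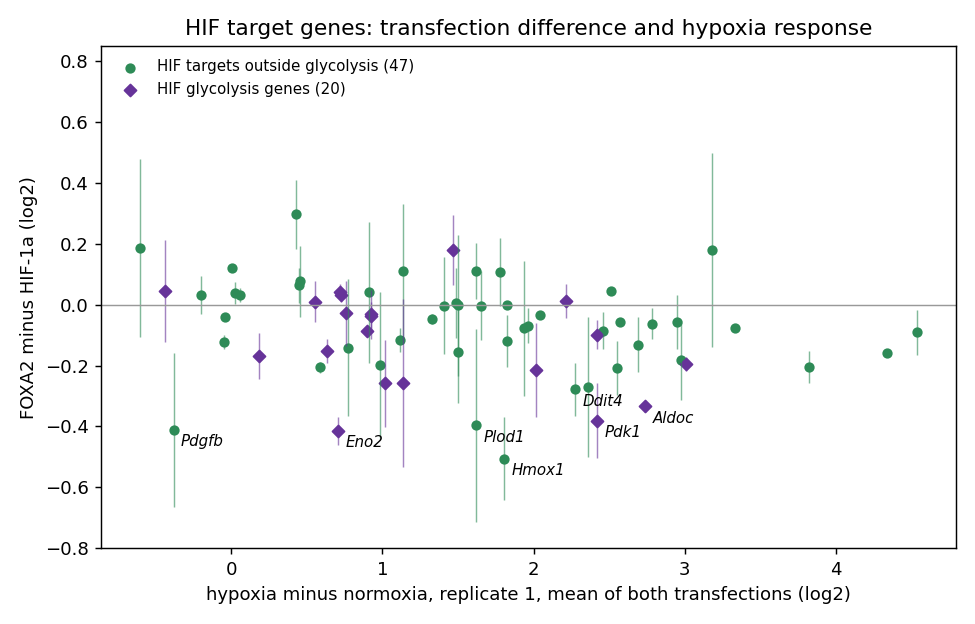
Mean FOXA2 minus HIF-1a difference (log2) of the normoxia pair and hypoxia pair 2, with a line between the 2 values, against the hypoxia minus normoxia difference of the replicate 1 arrays averaged over both transfections (log2), for 47 HIF targets outside glycolysis (circles) and 20 glycolytic targets (diamonds). Most points lie just below 0 on the vertical axis across the whole range of the horizontal one, with Hmox1 at -0.51, Eno2 at -0.41 and Aldoc at -0.33. The horizontal values include the HIF-1a array that stood apart.

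The promoters of HIF-list genes with an unadjusted p under 0.05 are shown for Aldoc, Ddit4 and Pfkp as examples. These genes stand on the HIF-1a side in all 3 pairs and are hypoxia-responsive, as are Eno2 and Plod1, which are not shown. The sequences are from RefSeq on GRCm38.p6, 300 bases around a gene start, 5′ to 3′ on the gene's strand, and capitals mark the HIF core ACGTG or GCGTG on either strand, overlapping matches merged. Aldoc lies at chr11:78322823-78323122 on the plus strand, Ddit4 at chr10:59951721-59952020 on the minus strand and Pfkp at chr13:6648722-6649021 on the minus strand.
Aldoc: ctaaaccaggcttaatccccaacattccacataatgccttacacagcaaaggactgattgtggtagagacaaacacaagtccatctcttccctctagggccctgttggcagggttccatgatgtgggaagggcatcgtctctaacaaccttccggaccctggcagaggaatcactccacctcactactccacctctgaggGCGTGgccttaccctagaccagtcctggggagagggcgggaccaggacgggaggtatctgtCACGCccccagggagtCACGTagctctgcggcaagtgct
Ddit4: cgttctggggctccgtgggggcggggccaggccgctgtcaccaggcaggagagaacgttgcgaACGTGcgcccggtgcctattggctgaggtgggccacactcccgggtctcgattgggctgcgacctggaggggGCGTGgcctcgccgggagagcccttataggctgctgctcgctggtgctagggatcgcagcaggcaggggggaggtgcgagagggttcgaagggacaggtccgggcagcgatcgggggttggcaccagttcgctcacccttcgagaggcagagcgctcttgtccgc
Pfkp: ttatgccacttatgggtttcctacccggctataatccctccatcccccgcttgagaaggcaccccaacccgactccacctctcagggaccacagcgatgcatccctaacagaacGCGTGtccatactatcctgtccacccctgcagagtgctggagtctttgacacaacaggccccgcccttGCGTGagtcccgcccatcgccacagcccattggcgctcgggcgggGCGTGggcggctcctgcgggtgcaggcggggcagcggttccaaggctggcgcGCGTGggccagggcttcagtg
These windows hold 3, 2 and 4 matches, and those of Eno2 and Plod1 hold 0 and 2. Of the 8 HIF-list genes with an unadjusted p under 0.05, 6 had a promoter entry. Of these 6, 5, all but Eno2, held the HIF core in at least 1 window. Over all 32851 promoters in the table the share was 43.8%, counted per promoter and not per gene. The 6 genes come from lists of known HIF targets, so their count does not bear on the difference between the transfections. The forkhead letters TGTTTAC or TGTTTGC on either strand were in 1 of the 6 genes, at a second start of Aldoc, beside 8.48% of all promoters. Of the 12 genes named higher with FOXA2, 7 had an entry, 4 held the HIF core and 0 the forkhead letters. Of the 12 named higher with HIF-1a, 8 had an entry, 4 held the HIF core and 0 the forkhead letters. Nckap1l and Hectd2 had no entry. A match in these windows is a run of letters and does not show that a factor binds there.

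Among the regulators of HIF, Hif1a was the only called gene of 19 measured. Hif3a, an inhibitory HIF subunit, differed by -0.24 ± 0.11 and was detected with HIF-1a only, at least 1.11-fold higher there, without passing the test. Arnt, the partner subunit, differed by -0.12 in the normoxia pair, -0.30 in hypoxia pair 1 and 0.03 in hypoxia pair 2. Vhl, the degradation receptor, read 8.28, 5.87 and 10.60 with HIF-1a against 8.39, 10.36 and 10.59 with FOXA2. The array that stood apart was the lowest, and without its pair the difference of Vhl was 0.05. Siah2, the ligase of the study's title, differed by -0.23, 0.77 and 0.11 in the 3 pairs. Arnt and Siah2 were named after their values were seen.

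Hes6, Sox9 and Kdm3a, genes of the study's follow-up, were not called. Hes6, a neurogenic repressor, read 6.73, 8.002 and 8.59 with FOXA2 and 6.92, 8.60 and 8.80 with HIF-1a, a difference of -0.33 ± 0.12 with an adjusted p of 0.701 by limma, and of -0.20 without hypoxia pair 1. Sox9, a developmental factor of prostate epithelium, read 9.21, 11.28 and 11.52 against 9.44, 11.16 and 11.62, a difference of -0.07 ± 0.11, or -0.17 without hypoxia pair 1. Kdm3a, a histone demethylase and HIF target, read 9.35, 11.42 and 11.62 against 9.56, 11.14 and 11.65. Its difference was 0.01 ± 0.12 on the brightest probe, or -0.12 without hypoxia pair 1, and -0.36 and -0.28 on its other detected probes. A p that misses the threshold does not show equal levels.

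Of 19 measured forkhead genes Foxa2 alone was called. Foxo3 differed by -0.31 ± 0.10, Foxj2 by -0.28 ± 0.10 and Foxc2 by 0.35 ± 0.12, each with an adjusted p of 0.701, and Foxc2, not detected with HIF-1a, is given as at least 1.14-fold higher with FOXA2. Of 48 endoderm and liver genes known as FOXA2 targets, 8 were measured. None was called, and Trf, transferrin, at -0.54 ± 0.18, was the only member with an unadjusted p under 0.05. Trf read 8.92, 8.97 and 7.86 with FOXA2 and 9.34, 10.04 and 8.002 with HIF-1a, with the widest gap in hypoxia pair 1. Without that pair Trf differed by -0.28, and with only its HIF-1a array left out by 0.0565. Gata6 differed by -0.24 ± 0.12 and Krt19, the simple keratin, by -0.15 ± 0.13, and without hypoxia pair 1 by -0.10 and -0.07. The median of the 8 was -0.09.

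Of 7 measured neuroendocrine and neuronal markers, 0 were called. Gap43, a growth cone protein gene, differed by 0.65 ± 0.20, with 1.31 in hypoxia pair 1 against 0.35 and 0.28 in the other pairs. Eno2 and Hes6 stood on the HIF-1a side with the values above. Scg5, a granin-family chaperone gene, differed by 0.25 ± 0.10. In the Notch pathway, with 9 measured, the ligand gene Jag1 differed by 0.37 ± 0.12, or 0.23 without hypoxia pair 1, and the receptor gene Notch4 by -0.33 ± 0.10, both with an adjusted p of 0.701.

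Inflammatory genes held more members on the HIF-1a side. Of 31 chemokine and NF-kB genes, 1 was higher with FOXA2 and 5 with HIF-1a at an unadjusted p under 0.05, against 2.31% and 3.31% of all genes. In 3 and 12 members all 3 differences had 1 sign, against 12.7% and 18.6% of all genes. Besides Csf2, the acute phase gene Saa3 differed by -0.41 ± 0.10, the iron-siderophore binder Lcn2 by -0.41 ± 0.10, the adhesion receptor Icam1 by -0.37 ± 0.10 and Cxcl16 by -0.25 ± 0.10. The pairs of Icam1 were close, at -0.41, -0.35 and -0.34. Tnfaip3, which restrains NF-kB, was the member on the FOXA2 side, at 0.29 ± 0.12. The NF-kB subunit gene Rel, not a member of this list, was also higher with FOXA2, at 0.64 ± 0.15. Without hypoxia pair 1 the list split 5 to 16, against 26.2% and 27% of all genes, with a median of -0.12 beside 0.00 for all genes. In hypoxia pair 1 the median was -0.09 for the list and -0.09 for all genes. None of these genes was called.

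Interferon-stimulated genes split 2 to 24 of 45 in the normoxia pair and hypoxia pair 2, against 26.2% and 27% of all genes, with a median of -0.08. In hypoxia pair 1 the list lay near all genes. There 26 of the 45 were higher with HIF-1a, beside 5608 of 9331 genes, with medians of -0.08 and -0.09. Over all 3 pairs 2 and 14 had 1 sign, against 12.7% and 18.6% of all genes. At an unadjusted p under 0.05, 0 were higher with FOXA2 and 3 with HIF-1a, against 2.31% and 3.31% of all genes. The 3 were Psmb9, Rsad2 at -0.31 ± 0.10 and Isg15 at -0.32 ± 0.12. Rsad2 read 10.89, 10.11 and 11.29 with FOXA2 and 11.21, 10.53 and 11.48 with HIF-1a. NRF2 antioxidant genes split 2 to 13 of 25 in the normoxia pair and hypoxia pair 2, against 26.2% and 27% of all genes, with a median of -0.06. Beside Hmox1, the glutathione transferase genes Gsta4, at -0.36 ± 0.10, and Gsta3, at -0.32 ± 0.11, had an unadjusted p under 0.05. None of either list was called.

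Ribosome biogenesis genes leaned the other way in the normoxia pair and hypoxia pair 2, with a median of 0.09. In both pairs 18 of 37 were higher with FOXA2 and 0 with HIF-1a, against 26.2% and 27% of all genes. Hypoxia pair 1 did not share this lean, with 22 of the 37 higher with HIF-1a and a median of -0.07, beside -0.09 over all genes. Over all 3 pairs 5 and 0 had 1 sign, against 12.7% and 18.6% of all genes. At an unadjusted p under 0.05 there were 0 members, and the median was 0.04. Pno1, a small-subunit assembly factor gene, read 12.06, 11.32 and 11.16 against 11.86, 11.18 and 10.80, a difference of 0.23 ± 0.10. Ddx21, a nucleolar helicase gene, differed by 0.94 ± 0.40, of which hypoxia pair 1 gave 2.37 and the other pairs 0.09 and 0.36. A second detected probe of Ddx21 gave 0.29, and in hypoxia pair 1 it read 8.99 with FOXA2 and 8.97 with HIF-1a. Oxidative phosphorylation genes, 34 measured, had a median of 0.00 and 0 members with an unadjusted p under 0.05.

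**Figure D5:**
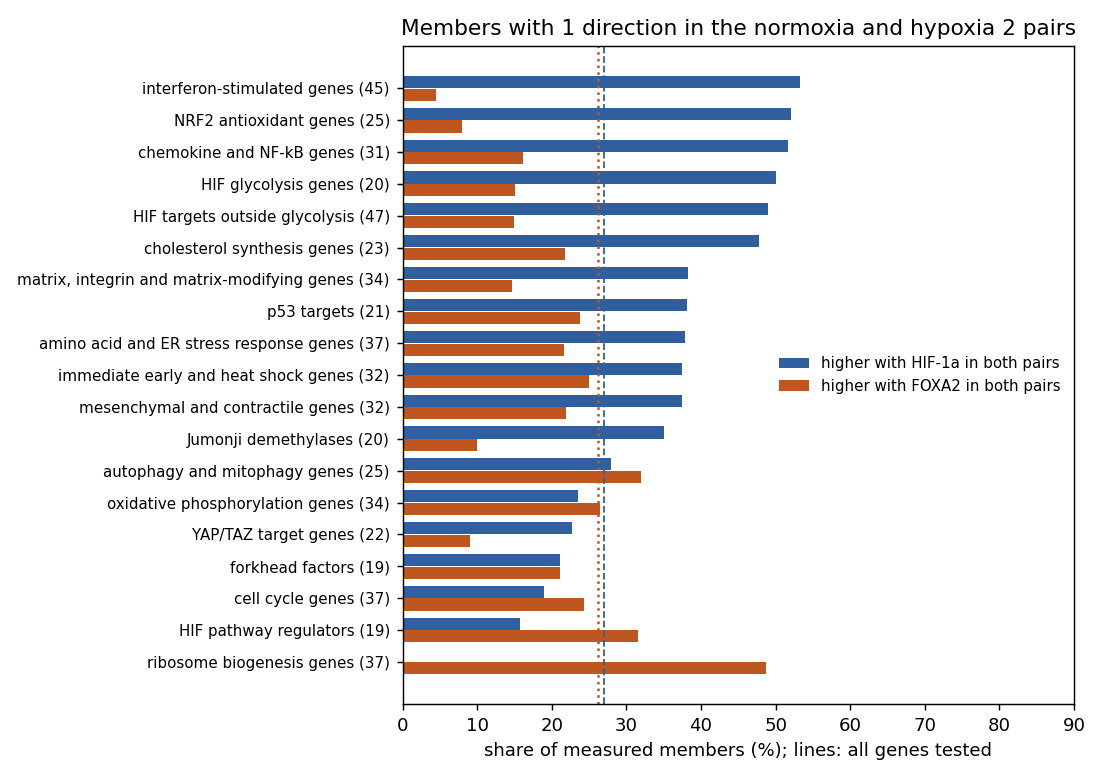
Share of the measured members (number in brackets) of each of 19 gene lists with at least 15 measured members that were higher with HIF-1a (blue) or with FOXA2 (orange) in both the normoxia pair and hypoxia pair 2, with the shares over all genes as lines (27% dashed, 26.2% dotted). In 13 of the 19 lists the blue bar ends to the right of the dashed line, furthest for interferon-stimulated, NRF2, chemokine, both HIF target and cholesterol synthesis genes, and ribosome biogenesis has 0 members in blue.

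In the remaining lists 0 genes were called, and the counts here are of members with an unadjusted p under 0.05, to be read against 2.31% of all genes on the FOXA2 side and 3.31% on the HIF-1a side. Pmvk and Stard4 of cholesterol synthesis and uptake differed by -0.39 ± 0.10 and -0.25 ± 0.10, the 2 so counted of 23. Of 32 mesenchymal genes 1 was counted on the FOXA2 side, the collagenase gene Mmp13 at 0.41 ± 0.14. Its brightest probe gave 0.03 in the normoxia pair, and its other detected probes gave 0.16 and 0.14 over the 3 pairs. On the HIF-1a side 4 were counted, among them Mmp14 at -0.26 ± 0.10 and the EMT factor gene Snai1 at -0.25 ± 0.10. The CDK inhibitor gene Cdkn1a, counted in the cell cycle and p53 lists, read 6.25, 11.17 and 11.16 with FOXA2 and 6.72, 11.70 and 11.30 with HIF-1a, a difference of -0.38 ± 0.12. Zmat3, also a p53 target, stood on the other side at 0.38 ± 0.13, or 0.23 without hypoxia pair 1. Of 32 immediate early and heat shock genes 1 was counted on the FOXA2 side and 4 on the HIF-1a side, among them Hspa1a at -0.37 ± 0.10, detected on 1 FOXA2 array, and Junb at -0.35 ± 0.13. Among Jumonji demethylases, 20 measured, Kdm6b differed by -0.34 ± 0.13. Without hypoxia pair 1 Junb differed by -0.21 and Kdm6b by -0.19. Of the 7 measured fibroblast and smooth muscle markers, Dpt differed by -0.38 ± 0.10 and Pdgfrb, detected on 1 FOXA2 and 2 HIF-1a arrays, by -0.26 ± 0.10, and their part in the other differences was not tested.

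In hypoxia alone, over 2 pairs, 2 genes (0.0214%) were called higher with FOXA2 and 1 (0.0107%) higher with HIF-1a, by limma with the spread taken from these pairs and the prior over genes. Foxa2 differed by 3.79 ± 0.36 with an adjusted p of 0.00775, Nckap1l by 1.70 ± 0.17 with an adjusted p of 0.00775 and Hif1a by -2.80 ± 0.17 with an adjusted p of 0.000289. Hectd2 differed by 1.14 ± 0.16 with an adjusted p of 0.120. At an unadjusted p under 0.05, 399 genes were higher with FOXA2 and 160 with HIF-1a. Both hypoxia pairs enter here, and the HIF-1a array that stood apart is 1 of the 4 arrays.

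In normoxia there was 1 array a side and no test. At least 2-fold higher with FOXA2 were 5 genes (0.0536%), Foxa2, Hectd2, Nckap1l, Tmem138 and Zc3h13, and at least 2-fold higher with HIF-1a were 2 (0.0214%), Hif1a and Procr, the endothelial protein C receptor gene. Zc3h13, a subunit of the RNA adenosine methylation complex, differed by 1.09 in normoxia but by -0.45 and -0.19 in hypoxia. Procr differed by -1.03 in normoxia and by -0.53 and 0.08 in hypoxia.

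Whether the difference between the factors changed with oxygen was tested as an interaction. No gene (0%) was called by limma, the lowest adjusted p was 0.9996, and 70 and 64 genes had an unadjusted p under 0.05 in either direction. The smallest p on one side were those of Tmem138, at -1.40 ± 0.29, Zc3h13, at -1.41 ± 0.29, the histone demethylase gene Kdm5a, at -1.15 ± 0.29, the translation repressor gene Eif4ebp2, at -1.08 ± 0.29, and the xylosyltransferase gene Xylt2, at -1.05 ± 0.28. On the other side were Ifnz at 1.09 ± 0.30, Hif1a at 1.02 ± 0.29, the lysosomal enzyme gene Sgsh at 0.96 ± 0.28, Jmjd1c at 1.01 ± 0.32 and Timm22 at 0.97 ± 0.30. The probe of Ifnz was detected on 1 FOXA2 and 1 HIF-1a array and those of Timm22 and Tmem138 on 2 and 1, so their values lie mostly at or below background. For Hif1a the gap between the transfections was thus 1.02 smaller in hypoxia, a value that did not pass the test over all genes. The interaction rests on 1 normoxia pair, so its spread comes from the hypoxia pairs and the prior over genes.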

How the data were processed

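RNA of 6 arrays of TRAMP-C cells in 4 groups was compared, grouped by the sample titles. The authors deposited linear probe intensity before any normalization, and a detection p-value beside it, per the file headers, made with software not given in the sources used here. A processed table of linear intensity deposited by the authors, with 26415 probes and a normalization not stated, served as an alternative. Of the columns of values 0 could not be assigned to a sample.

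Intensities were background corrected from the detection p-values with neqc (offset 16) of limma 3.58.1 in R 4.3.3, quantile normalized over the 6 arrays and put on a log2 scale. A probe stayed in when its detection p-value was below 0.01 in 2 or more arrays. Of the 16599 such probes, 14332 had 1 symbol in the platform annotation, 4 several and 2263 none. Where a gene had several probes (3469 genes), the brightest was taken.

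lmFit and eBayes were run with the 3 strata of oxygen and replicate number as a block, and p-values adjusted by Benjamini-Hochberg over 9331 genes. Both arrays of a pair shared a slide (4 arrays on slide 1, 2 on slide 2), so the block holds the slide. The same-numbered hypoxia arrays deviated together from their group means (r = 0.566 over genes). An exact sign-flip test over 3 pairs cannot go below 0.25, so none is given. The fits were tested on simulated data.

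Named were Foxa2, Hif1a, Hes6, Sox9 and Kdm3a, up to 12 genes in each direction (called genes, then the smallest p with 3 differences of 1 sign), called members and up to 4 members of smallest p in each of 27 lists, and 5 interaction genes in each direction; the text gives a part of them. The comparison, the members and the lists were chosen with earlier results of these data known, and Nckap1l was taken out of a list of FOXA2 targets for that reason. Foxred1, not a forkhead factor, was taken out of the forkhead list after its values were seen. The alternatives were other normalizations, filters, blocks, probe rules and arrays left out.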

Additional observations from a re-analysis of the deposited data

How the results depend on the processing

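No called gene turned its direction under any alternative run, but the counts moved. Over the 3 pairs 4 genes were called, and without the replicate block 2 (Hif1a and Nckap1l), with normalization over 12 arrays 2, with the mean of a gene's probes 2, over all detected probes 2, and 0 with the HIF-1a array of hypoxia pair 1 alone left out and no replicate block. Leaving out each pair in turn gave 3 to 5. Slide 1 alone holds the same arrays as the fit without hypoxia pair 2 and gave its 5, adding Arid4a. The difference of Foxa2 ran from 2.97 to 3.96 over 14 distinct alternatives (called in 10), that of Hif1a from -3.38 to -2.80 (13), that of Nckap1l from 1.23 to 1.86 (13) and that of Hectd2 from 0.85 to 1.15 (9). In hypoxia 3 genes were called, 0 without the replicate block and 1 in a fit on all 12 arrays. In normoxia 7 genes passed 2-fold, and 4 without background correction as well as in the processed table. The interaction called 0 genes under every alternative run. Analyses over all detected probes and those leaving out hypoxia pair 1 before normalization, or its HIF-1a array alone, were chosen after seeing the data.

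Among named genes the sign turned in 18 of the comparisons run, none of a called gene. With each pair left out in turn, Kdm3a ran from -0.118 to 0.124, Sox9 from -0.165 to 0.00853, Fkbp5 from -0.177 to 0.0116, Krt8 from -0.127 to 0.350 and Flt1 from -0.00926 to 0.218. Kdm3a went to -0.210 with the mean of its probes. With hypoxia pair 1 left out before normalization, Kdm3a went to -0.117, Fkbp5 to 0.0116, Krt8 to -0.132 and Flt1 to -0.00989. Without the HIF-1a array alone, Kdm3a went to -0.164, Vhl to -0.0215, Trf to 0.0565, Fkbp5 to 0.0278, Amotl2 to 0.0504, Flt1 to -0.164, Uty to -0.0805 and Kdm5d to -0.0426. The cause of these moves was not tested. List counts at an unadjusted p under 0.05 moved in 120 comparisons and were within 1.5 times in 285.

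The median standard error of a matched difference was 0.111, and the lowest adjusted p outside the 4 called genes was 0.701. A gene detected on no array of 1 side, such as Nckap1l with HIF-1a, has at most a bound, and the differences of genes detected on 1 or 2 arrays, such as Hp and Ifnz, lie near background.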

Other observations

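The genes low on the HIF-1a array of hypoxia pair 1 could not be the dimmest ones. A gene near background cannot read more than 2-fold below the other arrays. The median mean level of the low genes on the other 5 arrays was 8.74, beside 8.24 over all genes tested, a comparison that this rule shifts upward. Of 63 other detected probes of the 117 low genes, 1 was more than 2-fold below the other arrays, so that among the 42 genes with another probe the low reading lay mostly with a single probe. No other array held a gene more than 2-fold below the rest, and 1 gene was more than 2-fold above the rest on the FOXA2 array of hypoxia pair 2.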
